A study of Homo sapiens with 11 samples.

Results

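Mitochondrial ribosomal protein genes were examined here in MDA-MB-231 cells, an established human line of triple-negative breast cancer. They were chosen by name, as protein-coding genes on chromosomes 1 to 20 whose GENCODE symbol begins with MRPL or MRPS and a number. This gave 71 genes of the 23167 in the count tables, 45 named MRPL and 26 named MRPS. By the position of their proteins in the human ribosome, 47 belong to the large subunit and 24 to the small subunit, since MRPS30 and MRPS18A carry the name of one subunit and sit in the other. MRPL39 and MRPS6 on chromosome 21 and MRPL40 on chromosome 22 are outside the rule, and MRPL23, MRPL45, MRPS18B and MRPS36 are not analysed here.

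Mitochondria translate the messages of their own DNA on a ribosome of their own, and every protein of that ribosome is encoded in the nucleus and imported. Many of these proteins descend from bacterial ribosomal proteins, while others were added during the evolution of mitochondria. Its products are subunits of the respiratory chain and of ATP synthase, so cells need it for oxidative phosphorylation.

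RNA-seq compared WT cells, which received the transfection reagent INTERFERin without siRNA, with mH2A1.1 KD cells, which received 11 nM of siRNA against mH2A1.1, a splice isoform of the histone variant mH2A1, each with 2 libraries collected on day 3. The siRNA sequence used for these libraries is not named, and cells of 1 line were used throughout. Total RNA libraries were made with a stranded TruSeq kit. ChIP-seq was from cells without knockdown, with 1 library for mH2A1.1 (a custom antibody) and 1 for total mH2A1 (Ab37264). Whether these cells received the transfection reagent is not stated. The labels do not say whether the 2 libraries of a condition came from separate cultures, so p-values measure only the spread between these samples, which may be technical.

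The 4 libraries held between 2309549 and 9794674 counts. KD replicate 2, the smallest, had 30 counts on chromosomes 21, 22 and X together, against 367149 to 609961 in the others, and the fit therefore used chromosomes 1 to 20. The paper also lists the lowest percentage of uniquely mapped reads of the 4 libraries for KD replicate 2. Log2 CPM (counts scaled to the size of the library) correlated at r = 0.994 between the WT libraries and 0.960 between the KD libraries, across genes, which are not independent replicates. The markers VIM, CD44 and EGFR had WT means between 661 and 2414 CPM, while ESR1, PGR, CDH1 and KRT5 were at or below 2.41 CPM. Of the markers of other cell types, CD3E, ALB and PECAM1 were low in all libraries, and COL1A1 had 9.69 and 8.69 CPM in WT and 18.4 and 33.1 CPM in KD, and its part in the results was not tested. MACROH2A1, the gene of both mH2A1 isoforms, had 385 and 394 CPM in WT and 274 and 301 CPM in KD (log2 fold change -0.44, standard error 0.17, adjusted p = 0.204 in edgeR), and its gene count does not separate the isoforms.

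The promoters of the members are shown first, because the letters of some motifs were more frequent in them than in the promoters of other genes. RefSeq promoters of GRCh38.p14, from 250 bases before to 50 bases after the start, matched 64 of the 71 members. MRPL2, MRPL10, MRPL13, MRPL15, MRPL21, MRPL35 and MRPS28 had no entry. The letters searched on both strands were GCGCANGCG for NRF1, CCGGAAG for ETS factors such as GABPA, AANATGGCG for YY1, GGGCGG for SP/KLF factors and TATAAA for the TATA box. NRF1 and GABPA (also called NRF-2) are known as regulators of nuclear genes of mitochondrial function. In the sequences, capitals mark matches to the NRF1, ETS and YY1 letters on either strand, and no match shared bases with a match of another of these 3 kinds in any member. MRPS10 was the member with the lowest fitted log2 fold change, MRPS18A lay in the widest mH2A1.1 peak, MRPL22 and MRPL20 show the NRF1 letters beside YY1 or ETS letters, MRPS34 has 3 ETS matches, and MRPL19 has none of the 3 kinds.
MRPS10 promoter, chr6:42217812-42218111, minus strand: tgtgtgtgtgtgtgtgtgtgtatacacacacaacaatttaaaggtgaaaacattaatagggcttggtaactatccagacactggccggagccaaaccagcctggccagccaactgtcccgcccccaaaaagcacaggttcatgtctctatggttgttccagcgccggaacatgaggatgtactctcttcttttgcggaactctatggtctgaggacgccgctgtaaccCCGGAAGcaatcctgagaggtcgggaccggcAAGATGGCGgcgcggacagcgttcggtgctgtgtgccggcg
MRPS18A promoter, chr6:43687742-43688041, minus strand: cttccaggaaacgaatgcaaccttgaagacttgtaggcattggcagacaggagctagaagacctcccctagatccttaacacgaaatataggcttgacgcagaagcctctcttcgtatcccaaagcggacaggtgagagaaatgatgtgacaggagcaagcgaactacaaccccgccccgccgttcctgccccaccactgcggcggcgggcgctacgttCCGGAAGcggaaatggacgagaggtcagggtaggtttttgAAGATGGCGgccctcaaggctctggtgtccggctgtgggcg
MRPL22 promoter, chr5:154940823-154941122, plus strand: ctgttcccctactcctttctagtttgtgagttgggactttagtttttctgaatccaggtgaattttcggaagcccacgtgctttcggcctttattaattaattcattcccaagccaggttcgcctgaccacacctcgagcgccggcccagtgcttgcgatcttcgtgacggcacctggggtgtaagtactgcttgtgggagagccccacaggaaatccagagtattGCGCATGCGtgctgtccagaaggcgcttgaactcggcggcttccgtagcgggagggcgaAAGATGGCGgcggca
MRPL20 promoter, chr1:1407244-1407543, minus strand: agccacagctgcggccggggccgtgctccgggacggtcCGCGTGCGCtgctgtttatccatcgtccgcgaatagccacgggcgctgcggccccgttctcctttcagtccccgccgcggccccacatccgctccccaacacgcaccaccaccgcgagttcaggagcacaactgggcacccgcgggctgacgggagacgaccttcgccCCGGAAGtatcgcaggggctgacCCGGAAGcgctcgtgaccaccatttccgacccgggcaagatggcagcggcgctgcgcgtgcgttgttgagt
MRPS34 promoter, chr16:1773085-1773384, minus strand: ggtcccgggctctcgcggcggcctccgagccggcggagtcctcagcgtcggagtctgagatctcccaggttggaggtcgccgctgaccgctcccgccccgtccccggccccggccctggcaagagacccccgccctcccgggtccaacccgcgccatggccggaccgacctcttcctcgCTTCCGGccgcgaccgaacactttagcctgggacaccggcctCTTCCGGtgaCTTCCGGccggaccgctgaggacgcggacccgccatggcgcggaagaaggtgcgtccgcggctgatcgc
MRPL19 promoter, chr2:75646533-75646832, plus strand: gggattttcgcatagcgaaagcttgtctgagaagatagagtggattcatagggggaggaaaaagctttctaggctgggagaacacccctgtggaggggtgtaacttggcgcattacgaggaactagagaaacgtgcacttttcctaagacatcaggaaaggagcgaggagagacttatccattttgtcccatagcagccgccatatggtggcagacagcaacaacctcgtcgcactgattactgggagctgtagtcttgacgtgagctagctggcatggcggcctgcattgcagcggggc

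ETS letters were in 28 of the 64 promoters (43.8%), against 20.1% of the 8678 promoters of protein-coding genes tested and 10.7% of all 27305 promoters. YY1 letters were in 17 (26.6%), against 7.36% and 3.39%, and in 14 of these 17 they lay only across or after the start, as they do in MRPS10, MRPS18A and MRPL22. Within the 250 bases before the start, YY1 letters were in 3 members (4.69%), against 2.43% and 1.41%. NRF1 letters were in 12 (18.8%), against 15.3% and 8.07%. Any of the 3 was in 45 promoters (70.3%), against 36.5% of the tested genes' promoters and 19.3% of all. Of the 45, 33 held 1 kind and 12 held 2 kinds. In the other direction, GGGCGG was in 37 promoters (57.8%), against 71.7% of the tested genes' promoters, and TATAAA was in 2 (3.12%), against 5.31%. The median GC content of the members' promoters was 60.2%, below 65.7% for the tested genes. A match is a description of the letters, and no match says only that these letters are not in the window. Between the conditions, described below, the median log2 fold change was 0.21 for the 27 tested members with ETS letters and 0.23 for the 35 without, and 0.14 for the 16 with YY1 letters and 0.28 for the 46 without. With offsets for exon length and GC content these medians were 0.12 and 0.22 for ETS and 0.22 and 0.14 for YY1, so that the order for YY1 turned.

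**Figure D1:**
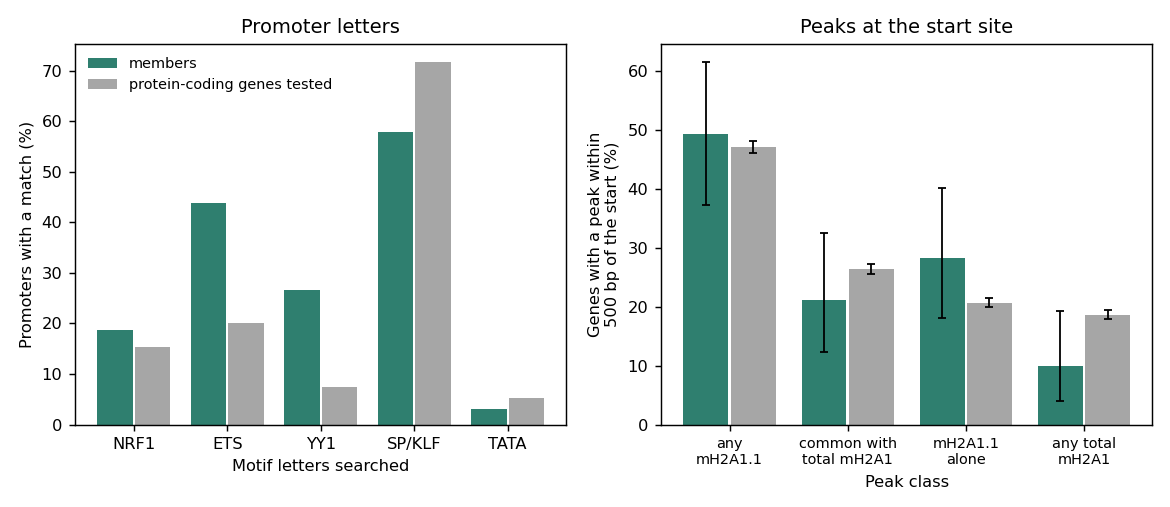
Left, percent of promoters of 300 bases that hold the letters of each motif, for 64 members (green) and 8678 protein-coding genes tested (grey). Right, percent of genes with a peak within 500 bp of the start, for 71 members and 10506 protein-coding genes tested, with 95% exact binomial intervals that cover counting error only. ETS letters (43.8% against 20.1%) and YY1 letters (26.6% against 7.36%) stood above the grey bars, while the interval for any mH2A1.1 peak at members (37.2 to 61.4%) included the 47.0% of the tested genes.

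Of the 71 members, 18 (25.4%) had an opposite-strand neighbour starting within 1 kb upstream of their own start, against 13.2% of the protein-coding genes tested. Neighbours that start downstream of the member's start, and so overlap it head to head, were not counted. MTBP beside MRPL13 and TWNK beside MRPL43 are examples. Among the counted pairs the shortest gap was 6 bp, between MRPL49 and FAU, whose protein is processed to a ribosomal protein of the cytosol. The 18 members make 17 distinct pairs, of which both genes were tested in 14, and both log2 fold changes had the same sign in 8. Respiratory complex I genes are partners in 2 of the pairs. MRPL36 and NDUFS6, 41 bp apart, had log2 fold changes of 0.76 and 0.98 (0.22 and 0.38 with offsets for exon length and GC content). MRPL47 and NDUFB5, also 41 bp apart, had -0.15 and -1.17 (0.23 and -0.72 with the offsets, so that the sign of MRPL47 turned). MRPL46 and MRPS11, starting 63 bp apart, are the only pair in which both partners are members (0.40 and 0.28).

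In WT cells the members were expressed over a wide range. Levels between genes are given as CPM per kb of summed exon length, as the mean ± SD of the 2 WT libraries. The median was 12.0 over all 71 members. Over the 68 members that passed the filter on low counts it was 12.5, against 7.29 over the protein-coding genes tested. MRPS10, a small subunit protein of bacterial origin, had the highest level, at 102 ± 3.76, and MRPL14, a large subunit protein at the subunit interface, followed at 72.5 ± 5.25. MRPL41, MRPL51 and MRPL3 came next at 47.8 ± 10.2, 45.0 ± 4.09 and 40.3 ± 1.12. The level of MRPS10 stood apart from that of MRPL14, and MRPL14 from the next genes, by more than their SDs. The ranges of mean ± SD of MRPL41, MRPL51 and MRPL3 overlapped. Even so, both WT libraries of MRPL51 (42.1 and 47.9) lay above both of MRPL3 (39.5 and 41.1). With the length of the longest transcript in place of the summed exons, 6 of the 10 highest members stayed among the 10 highest. By that length MRPS10 was at 102 and MRPL14 at 72.5, while MRPL51 was at 69.6 and MRPL3 at 64.0. The gap between MRPL14 and the next genes thus depended on the length used.

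At the other end, MRPS12, which forms part of the decoding centre, had 0 counts in all 4 libraries, which allows up to 3 counts a library, or 0.316 CPM in WT replicate 1 and 1.42 CPM in KD replicate 2. Its head-to-head neighbour SARS2, which encodes the mitochondrial seryl-tRNA synthetase and starts 181 bp away, was also at 0 in all 4. MRPS24 was at 0.202 CPM per kb (5 and 4 counts in WT, 6 and 1 in KD) and MRPL46 at 0.385 ± 0.125. MRPL12, which forms the stalk of the large subunit and also binds the mitochondrial RNA polymerase, was counted only 13 and 10 times in WT and 9 and 13 times in KD. Together, 8 members had fewer than 50 counts over the 2 WT libraries (MRPS12, MRPS24, MRPL12, MRPL53, MRPL46, MRPS28, MRPL38 and MRPS17), and the remaining 63 had between 220 and 3656. Of these 8, 7 shared 11.3 to 72.8% of their exon bases with another annotated gene on the same strand, against 10 of the 63 others, with 1.72 to 29.2%. The authors counted with the default parameters of htseq-count, which assign reads by strand, and 27 of the 63 others shared up to 50.9% of exon bases with genes of the opposite strand. Annotated pseudogenes exist for 31 of the 71 members. The levels of members with such overlaps or copies are uncertain, and the part of these in the low values was not tested.

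Between the conditions, 68 of the 71 members were tested, and MRPS12, MRPS24 and MRPS28 did not pass the filter on low counts. With edgeR's quasi-likelihood test, with limits of 0.1 on the adjusted p and 1.5 on the fold change, no member passed, as was the case for all 10943 genes tested (0% called in either direction). The smallest adjusted p was 0.175, and MRPS10 was among the genes that had it. At an unadjusted p under 0.05, 10 members were higher in KD and 3 were lower, against a background of 11.8% of all genes higher and 11.4% lower. DESeq2, the tool of the study, was run here on chromosomes 1 to 20. It called 5 members higher and 2 lower, against 5.57% and 5.78% of the 7739 genes to which it gave an adjusted p. These 7 calls were MRPL14, MRPL24, MRPL55, MRPS18A and MRPS34, higher in KD, and MRPS10 and MRPL19, lower. On all genes of the table DESeq2 called fewer members, as given in the closing section. The calls of edgeR depended on which KD library was kept. Without KD replicate 1, 19 members were called higher and 13 lower, against 20.4% and 21.4% of all genes, and without KD replicate 2, MRPS10 alone was called, as lower (2.74% of all genes higher, 5.31% lower). Each of these fits took the spread from the WT libraries.

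By direction, more members were higher than lower in KD. The median log2 fold change of the 68 members was 0.23, against 0.01 over all genes tested, and 50 (73.5%) were above 0, against 50.6%. Both KD libraries lay above both WT libraries for 35 members (a background of 32.5% of all genes) and below them for 13 (32.4%), and they overlapped for 20. Against the WT mean, the median log2 ratio of the members was 0.13 in KD replicate 1 and 0.25 in KD replicate 2. The median of the fitted values was 0.14 without KD replicate 2 and also without WT replicate 1. The sign was the same in both KD libraries for 59 members, and KD replicate 2 lay further from WT for 58. The share of all counts of chromosomes 1 to 20 that fell on the 71 members was 0.293 and 0.318% in WT and 0.312 and 0.315% in KD, so the KD libraries lay within the range of the WT libraries by this measure. Scaled by TMM, the members summed to 2833 and 3081 CPM in WT and 3075 and 3440 CPM in KD, so that KD replicate 1 still lay between the WT libraries. The SD between replicates was larger in KD, with a median of 19.4% of the mean, against 8.52% in WT.

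**Figure D2:**
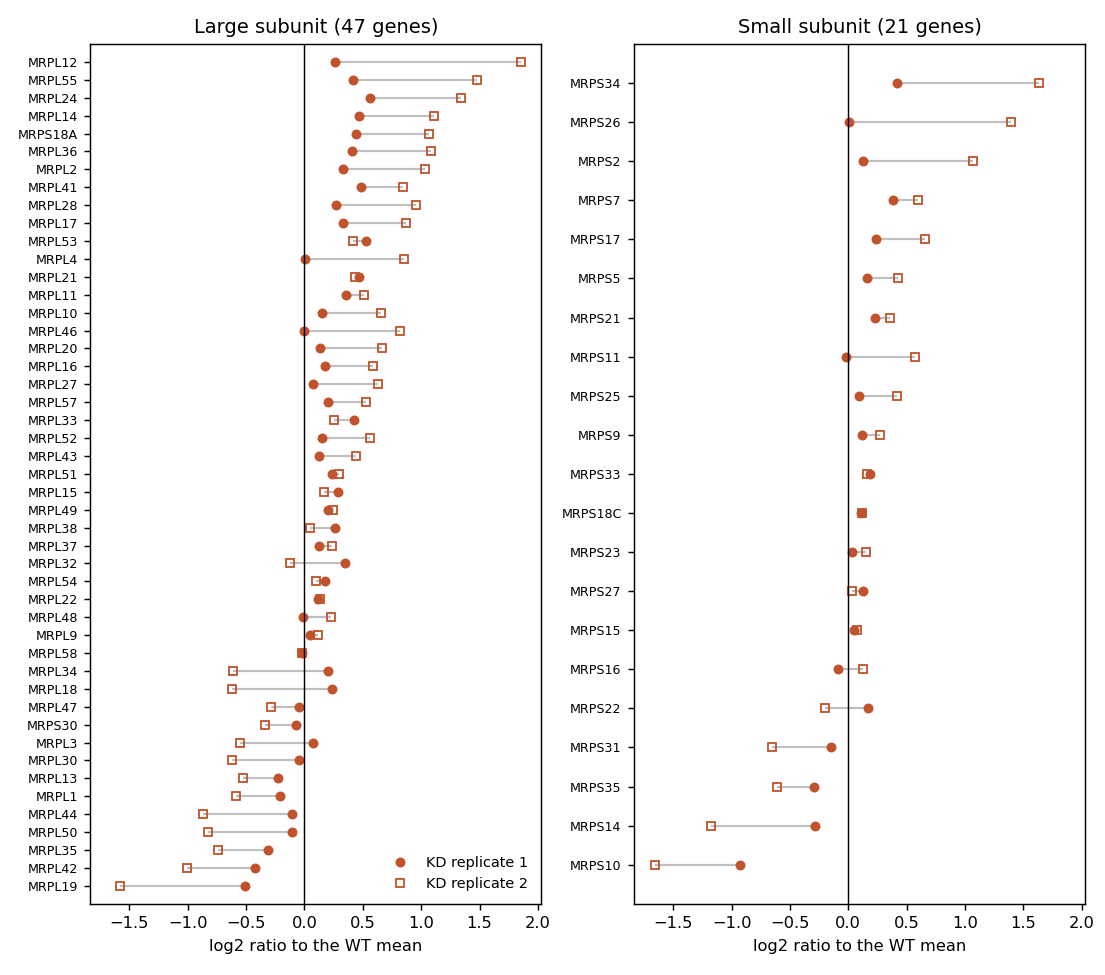
Log2 ratio of CPM to the WT mean (0.5 CPM added to both) for every tested member in KD replicate 1 (filled circles) and KD replicate 2 (open squares), with large subunit genes on the left and small subunit genes on the right, ordered by fitted log2 fold change. For 58 of 68 members KD replicate 2 lies further from 0 than KD replicate 1, and for 59 both lie on the same side.

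The member with the lowest fitted log2 fold change was MRPS10 (chromosome 6, 42206807 to 42217861 in GRCh38, minus strand). It had 209 and 220 CPM in WT and 112 and 67.7 CPM in KD. Both KD libraries lay far below both WT libraries, and KD replicate 2 was lower than KD replicate 1. The log2 fold change was -1.24 (standard error 0.26, edgeR adjusted p = 0.175), and -1.67 without KD replicate 1 and -0.93 without KD replicate 2. With length and GC offsets, described below, it was -0.98 and passed the thresholds (adjusted p = 0.0185), and DESeq2 gave -1.25 (adjusted p = 0.00189).

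MRPL19, a large subunit protein of bacterial origin at the interface of the subunits, had 82.7 and 72.6 CPM in WT and 54.3 and 25.6 CPM in KD (log2 fold change -0.91, standard error 0.32, adjusted p = 0.194 in edgeR). MRPL42, found only in mitochondrial ribosomes, had 115 and 98.8 CPM in WT and 79.7 and 53.0 CPM in KD (log2 fold change -0.67). In both genes the WT and KD libraries did not overlap, and the lowest value was that of KD replicate 2. MRPS14, a small subunit protein of bacterial origin, had 23.9 and 26.5 CPM in WT and 20.6 and 10.9 CPM in KD (log2 fold change -0.59), and MRPL35 had 53.6 and 56.2 CPM in WT and 44.1 and 32.7 CPM in KD (-0.49). With the offsets these 4 log2 fold changes lay between -0.40 and -0.11.

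The highest fitted value was that of MRPL12, at 1.22 (standard error 0.63), which rests on the 9 to 13 counts a library given above and on KD replicate 2 in particular (1.37, 1.32, 1.70 and 6.15 CPM for both WT and then both KD libraries). MRPS34, found only in mitochondrial ribosomes, had 31.4 and 40.2 CPM in WT and 47.9 and 112 CPM in KD (log2 fold change 1.13, standard error 0.39, edgeR adjusted p = 0.193). Without KD replicate 2 its log2 fold change was 0.43, and 31.2% of its exon bases lie opposite another annotated gene. MRPL55 had 12.5 and 13.3 CPM in WT and 17.4 and 36.9 CPM in KD (log2 fold change 0.99).

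MRPL24, a large subunit protein of bacterial origin, had 41.3 and 50.2 CPM in WT and 67.7 and 117 CPM in KD (log2 fold change 0.99, standard error 0.28, adjusted p = 0.193 in edgeR), and MRPL14 had 65.8 and 73.0 CPM in WT and 95.9 and 150.04 CPM in KD (0.81). Both KD libraries were above both WT libraries in all 5 of these genes, and KD replicate 2 was the higher one each time. With the offsets, MRPL24 passed the thresholds (log2 fold change 0.59, adjusted p = 0.0618), while MRPS34 (0.40), MRPL55 (0.47), MRPL14 (0.27) and MRPL12 (0.60) did not.

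**Figure D3:**
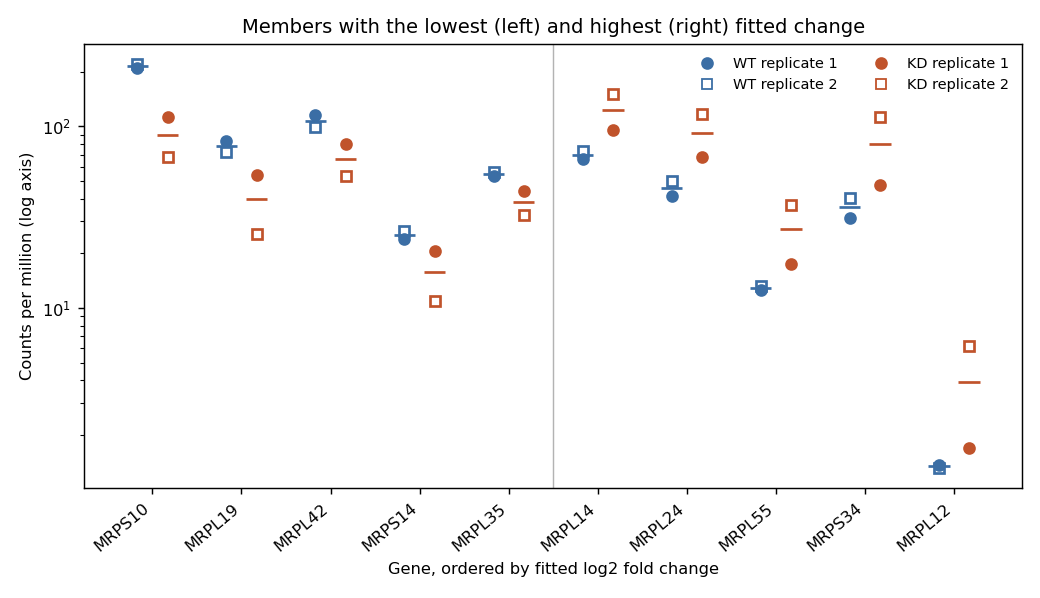
CPM on a log axis in each library for the 5 members with the lowest and the 5 with the highest fitted log2 fold change (WT blue, KD orange, replicate 1 filled circles, replicate 2 open squares, lines for the means of 2 libraries). The WT libraries lie close together, from 209 and 220 CPM for MRPS10 to 1.37 and 1.32 CPM for MRPL12, and KD replicate 2 lies further from them than KD replicate 1 in each of the 10 genes.

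The paralogs MRPS18A and MRPS18C, whose proteins sit in the large and in the small subunit, had similar WT levels. MRPS18A had 35.7 and 37.4 CPM in WT and 49.8 and 77.2 CPM in KD (log2 fold change 0.77). MRPS18C had 39.6 and 40.6 CPM in WT and 43.3 and 43.5 CPM in KD (0.12). The difference between the paralogs was not tested. Their exons differ in GC content, at 57.7% for MRPS18A and 37.3% for MRPS18C, and with the offsets the order turned, with 0.26 for MRPS18A and 0.64 for MRPS18C, of which the latter passed the thresholds (adjusted p = 0.0796). MRPL58, a peptidyl-tRNA hydrolase built into the large subunit, had 21.1 and 23.0 CPM in WT and 21.8 and 21.8 CPM in KD (-0.02).

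The GC content of a member's exons ordered the fitted log2 fold changes. Over the 68 members, GC content and log2 fold change correlated at a Pearson's r of 0.73 (Spearman's rho 0.76), and over all genes tested at 0.63. These points share the same 4 libraries. The correlation over members was 0.58 for KD replicate 1 and 0.71 for KD replicate 2. The 19 members with exons under 42% GC had a median log2 fold change of -0.33, against -0.42 for other genes of that GC content. In the next classes, up to 46, 50 and 55%, the medians were 0.18, 0.32 and 0.40 for members and -0.15, 0.07 and 0.25 for other genes. From 55% up, the 16 members had a median of 0.66 and all 16 were above 0, against 0.44 and 86.5% of other genes. In each of the 5 classes the members' median was above that of the other genes, by 0.09 to 0.34.

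A second fit removed, from each library, smooth trends of the counts on exon length and exon GC content, by means of offsets. The correlation of the members' log2 fold changes with GC content was then -0.06. Their median was 0.14, against 0.01 over all genes, and 48 of 68 (70.6%) were above 0, against 51.9%. Of the 68 members, 4 were called higher, MRPL24, MRPL32, MRPS18C and MRPL22, against a background of 2.42%, and 1 was called lower, MRPS10, against 3.18%. At an unadjusted p under 0.05 the counts were 17 higher and 2 lower, against 14.6% and 11.8%. MRPL32, whose maturation in the mitochondrion is known to control ribosome assembly, had 30.3 and 37.7 CPM in WT and 43.3 and 31.2 CPM in KD, so that its libraries overlapped before the offsets. MRPL22, a protein of the exit tunnel, had 31.9 and 35.2 CPM in WT and 36.3 and 36.9 CPM in KD. Without the offsets the log2 fold changes were 0.16 for MRPL32 and 0.13 for MRPL22, and with them 0.67 and 0.60. MRPL24, at 0.586 with the offsets, lay just past the limit on the fold change. The spread between replicates estimated by edgeR, relative to the mean, was 0.166 without the offsets and 0.0932 with them. The trends were fitted to these same 4 libraries. MRPL32 and MRPL22 were named after their values were seen, as calls of this second fit.

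**Figure D4:**
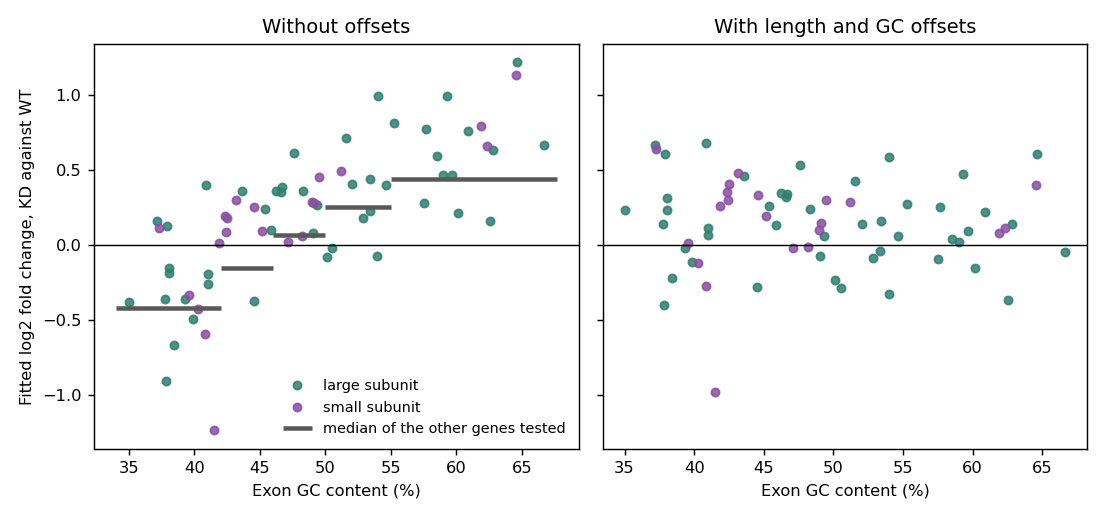
Fitted log2 fold change against exon GC content in percent for 68 members, without (left) and with (right) offsets for exon length and GC content. Grey lines on the left are the medians of the other genes tested in 5 classes of GC content, from -0.42 below 42% to 0.44 from 55% up. The members follow the slope of the grey lines on the left (Pearson's r 0.73) and show no slope on the right (-0.06).

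Across the parts of the ribosome, median log2 fold changes were 0.36 for the 29 large subunit proteins of bacterial origin, 0.22 for the 18 large subunit proteins found only in mitochondria, 0.23 for the 12 tested small subunit proteins of bacterial origin and 0.09 for the 9 small subunit proteins found only in mitochondria. Without KD replicate 2 these medians were 0.23, 0.14, 0.12 and 0.098. The large minus the small subunit median was 0.09, and 0.22 without WT replicate 2. Median exon GC content was lowest in the last group, at 42.5%, against 47.7 to 49.9% in the others. With the offsets the 4 medians were 0.16, -0.00, 0.13 and 0.26, and the difference between the subunits turned to -0.05. The small subunit proteins found only in mitochondria thus had the lowest median without the offsets and the highest with them, and the other 3 groups kept their order.

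Other nuclear genes of mitochondrial gene expression were described for comparison, and edgeR called none of them. The 5 other proteins of the ribosome without an MRPL or MRPS symbol had a median log2 fold change of 0.27. Among them, GADD45GIP1 (mL64 of the large subunit) had 48.6 and 57.3 CPM in WT and 66.6 and 78.6 CPM in KD, and AURKAIP1 (mS38 of the small subunit) had 51.3 and 55.04 CPM in WT and 62.1 and 69.1 CPM in KD. Their log2 fold changes of 0.45 and 0.30 turned to -0.02 and -0.27 with the offsets.

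The 17 translation factors had a median of 0.05, and 1 was higher and 1 lower at an unadjusted p under 0.05, against 11.8% and 11.4% of all genes. TUFM, the elongation factor that brings aminoacyl-tRNA to the ribosome, had 78.4 and 100.1 CPM in WT and 114 and 240.4 CPM in KD (log2 fold change 0.97, standard error 0.35, adjusted p = 0.194 in edgeR). MTIF2, the initiation factor that places the initiator tRNA, had 86.8 and 81.9 CPM in WT and 67.9 and 41.7 CPM in KD (-0.60). With the offsets their log2 fold changes were 0.47 and -0.42. In neither gene did the conditions overlap, and KD replicate 2 was the library furthest from WT in each.

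The 24 assembly factors tested had a median of 0.18, and 1 was higher at an unadjusted p under 0.05, against 11.8% of all genes. This was MPV17L2, with 11.1 and 12.4 CPM in WT and 15.5 and 21.8 CPM in KD (0.63). MRM3, which methylates the RNA of the large subunit, had 16.8 and 20.02 CPM in WT and 24.0 and 28.9 CPM in KD (0.51). With the offsets these were 0.17 and 0.19. The 17 mitochondrial aminoacyl-tRNA synthetases tested had a median of 0.18. Among them, PARS2, for proline, had 5.79 and 3.82 CPM in WT and 8.32 and 6.63 CPM in KD.

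The 13 tested genes of mitochondrial transcription and RNA processing had a median of -0.31, and both KD libraries lay below both WT libraries for 8 of them, against 32.4% of all genes. At an unadjusted p under 0.05, POLRMT, the mitochondrial RNA polymerase, was higher in KD (28.1 and 36.5 CPM in WT, 42.003 and 81.9 CPM in KD, log2 fold change 0.91). TRMT10C, a subunit of the mitochondrial RNase P, was lower (40.5 and 35.8 CPM in WT, 26.9 and 27.0 CPM in KD, -0.50), as was TFAM, which packages mitochondrial DNA (135 and 124 CPM in WT, 104 and 62.0 CPM in KD, -0.63) and was named after its values were seen. The background at this limit was 11.8% of all genes higher and 11.4% lower. With the offsets the 3 log2 fold changes were 0.37 for POLRMT, -0.20 for TRMT10C and -0.041 for TFAM, and TRMT10C and TFAM no longer passed this limit. Without KD replicate 2 the median of this list was -0.22. With the offsets it was -0.04, and those of the other 4 lists, in the order given, were 0.17, 0.14, 0.06 and 0.14. None of these lists was tested against the members.

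**Figure D5:**
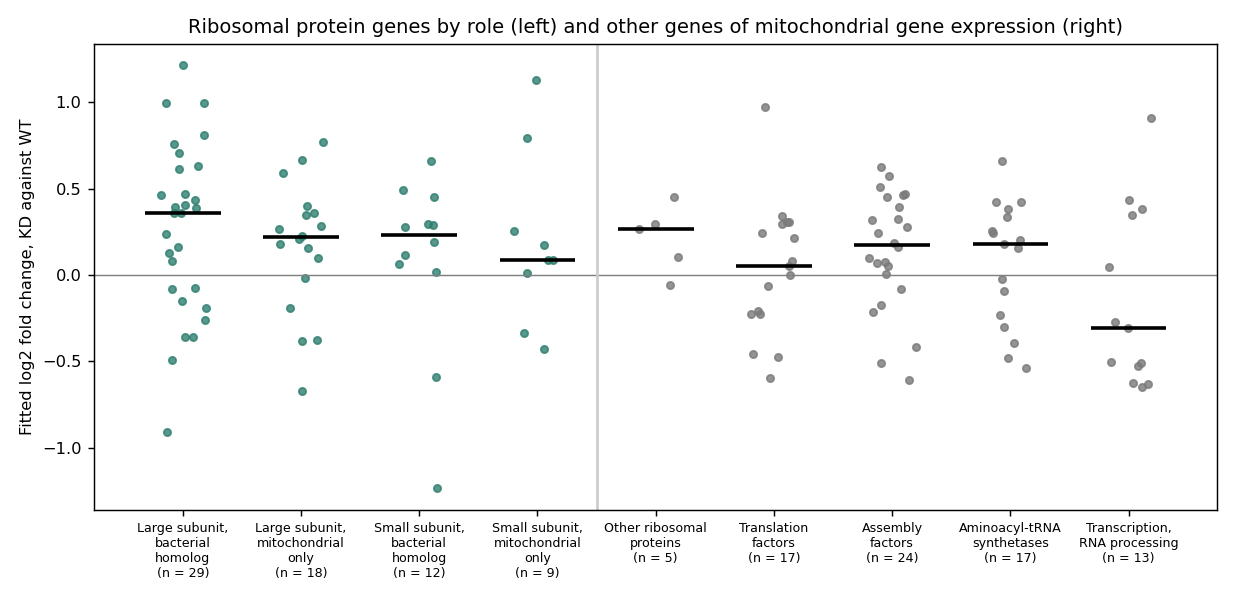
Fitted log2 fold change of each tested gene (points) and the median (bars) for the members by subunit and origin (green, left) and for 5 lists of other nuclear genes of mitochondrial gene expression (grey, right). The medians of the members run from 0.09 to 0.36, and the transcription and RNA processing list is the one with a median below 0 (-0.31).

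An mH2A1.1 peak lay within 500 bp of the start of 35 of the 71 members in the cells without knockdown. This was 49.3% (95% exact binomial interval 37.2 to 61.4%), against 47.0% of the 10506 protein-coding genes tested. Peaks were called in bins of 3000 bp from 1 library per antibody, so the share has no replicate and the intervals cover counting error only. The peak also overlapped a total mH2A1 peak for 15 members (21.1%, interval 12.3 to 32.4%, against 26.4%), and did not for 20 (28.2%, interval 18.1 to 40.1%, against 20.6%). Total mH2A1 peaks lay at 7 starts (9.86%, interval 4.06 to 19.3%, against 18.6%). Each of these 4 intervals included the value of the tested genes. RefSeq and GENCODE starts were over 1000 bp apart for 5 members, by 338188 bp in MRPS22, and with RefSeq starts, an alternative chosen after seeing the data, the mH2A1.1 share was 51.6% of 64.

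The peaks at members' starts had a median width of 6000 bp, and 15 of the 35 were a single bin. MRPS10 had such a single bin (chr6:42216001-42219000), with no total mH2A1 peak and 16.8% of its gene body covered. MRPS18A lay in the widest, of 123000 bp (chr6:43620001-43743000), which covered the whole gene. MRPL24 and MRPL54 were also covered whole, by peaks of 111000 and 99000 bp. Any base was covered in 46 of the 71 members (64.8%), against 72.4% of the protein-coding genes tested. In all, 14 members were covered whole and 23 over more than 50% of their length, and the mean cover was 33.5% of the gene, against 24.1% for the protein-coding genes tested. With bins of 3000 bp the percent covered also depends on gene length, which was not matched in this comparison. MRPL54 is a large subunit protein found only in mitochondria, and it had 12.3 and 16.7 CPM in WT and 16.5 and 15.6 CPM in KD, with overlap between the conditions.

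Members with a common peak at the start had a median log2 fold change of 0.40 (15 genes), those with an mH2A1.1 peak alone 0.21 (18 genes) and those with neither peak 0.15 (34 genes). In KD replicate 1 alone, the medians of the log2 ratio to the WT mean were 0.20, 0.21 and 0.10. All protein-coding genes tested had fitted medians of 0.28, -0.03 and -0.14 in these classes. Median exon GC content of the members followed the same order, at 54.6, 47.9 and 44.5%. With the length and GC offsets the members' medians were 0.10, 0.19 and 0.15 and no longer had that order. The part of GC content in the order was not tested further.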

How the data were processed

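The members and gene lists were chosen with earlier results of these data known. RNA-seq was deposited as counts per gene, made by the authors with STAR 2.5.1 on GRCh38, a mapping quality limit of 10, removal of duplicates and htseq-count. Without molecular identifiers, duplicate removal also discards distinct molecules of dense genes. The annotation release behind the counts is not given in the sources used here, and 23061 of 23167 identifiers matched GENCODE 44, from which exon lengths, GC content, starts and overlaps came. The other deposited values are peak positions in bp, which the authors called with normR against the input. Their other columns were not used.

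Counts of 10943 genes on chromosomes 1 to 20 went into edgeR 4.0.16 (R 4.3.3; TMM factors, filterByExpr, quasi-likelihood test, Benjamini-Hochberg adjustment over all genes tested). CPM used TMM library sizes of chromosomes 1 to 20. The limits for a call were 0.1 on the adjusted p and 1.5 on the fold change. Standard errors came from the F statistic. Offsets were lowess trends with a span of 0.3, centred per library. DESeq2 1.42.0 and the other settings were alternatives. The test was also run on simulated data with the same spread in every library and no trend on exon length or GC content. The real counts hold such a trend, so the simulation cannot show how the test behaves under it. Intervals are exact binomial, from scipy 1.17.1. Where several RefSeq promoters carried 1 symbol, the one nearest to the GENCODE start was used.

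The genes named are the 5 members with the highest and the 5 with the lowest fitted change, the 5 with the highest and 3 with the lowest WT level, the MRPS18 paralogs, the 3 most covered by mH2A1.1 peaks (ties broken by the width of the peak at the start), MRPL12, MRPL58 and MRPS12, the 2 genes of each list with the smallest p, and MACROH2A1. A gene under this rule is not reported here. The ChIP-seq input and the 4 promoter capture Hi-C samples were not analysed here.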

Additional observations from a re-analysis of the deposited data

How the results depend on the processing

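The count of members called, 0 by edgeR, was 7 with DESeq2, 4 with DESeq2 on all genes of the table (chosen after seeing the data), 14 without a filter on low counts, 5 with the length and GC offsets, 5 with offsets and replicate block, and 0 to 32 with 1 library left out, of which 32 without KD replicate 1 and 1 without KD replicate 2. Over all genes it was 878, 945, 2143, 613, 837 and 2 to 4735 (4735 without KD replicate 1, 908 without KD replicate 2), and over the lists 2, 0, 6, 2, 3 and 0 to 29 (29 without KD replicate 1). With 1 library left out, the lone sample is assumed to vary like the other group. The replicate number as a block gave 16 members, 2200 genes and 6 list genes. Nothing in the labels pairs the libraries, and deviations of equal numbers correlated at 0.265 over 2 pairs.

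The members' median log2 fold change was 0.14 with the offsets and 0.14 to 0.30 with 1 library left out. The difference between the subunits was -0.052 with the offsets, -0.062 with offsets and block, and 0.070 to 0.22 with 1 library left out. The share of members' starts with an mH2A1.1 peak was 21.1% for common peaks, against 26.4% of the protein-coding genes tested. It was 12.7% where mH2A1 covered 50% of the peak, against 16.3%, and 28.2% for peaks wider than 1 bin, against 33.2%. The members thus lay below the tested genes by these definitions, and above them with all peaks (49.3% against 47.0%). By the longest transcript, 6 of the 10 highest members were kept.

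With the offsets, and with offsets and block, log2 fold changes turned sign for MRPL3 (0.12 and 0.11), MRPL41 (-0.048 and -0.068), MRPL54 (-0.37 and -0.40), GADD45GIP1 (-0.022 and -0.034) and AURKAIP1 (-0.27 and -0.30). With 1 library left out, MRPL3 ran from -0.57 to 0.077 (above 0 without KD replicate 2), MRPL54 from -0.060 to 0.38 (below 0 without WT replicate 1) and MRPL58 from -0.086 to 0.043 (above 0 without WT replicate 2). The cause of these changes was not tested. The other settings run (all genes of the table, DESeq2 size factors, a stricter filter, robust estimation) kept the direction of every named gene they tested, and no member passed under them. Depth limits KD replicate 2 most, where 3 counts are 1.42 CPM.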
